A study of Mus musculus with 20 samples.

Results

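The antioxidant and NRF2 target genes described here are 10 protein-coding genes: Nfe2l2, Nqo1, Gclc, Gclm, Txnrd1, Srxn1, Cat, Sod1, Sod2 and Gpx1. They were taken by symbol from a table of 45802 gene entries, where all 10 were found, and all 10 passed the filter on low values. The table covers the livers of 20 C57BL/6 mouse fetuses at E17.5, 4 in each of 5 groups, and every dam had been fasted for 24 h. In HetDam_HetFetus, dam and fetus were both heterozygous for Ppara, the fatty acid-sensing nuclear receptor that drives fat oxidation in the fasting liver. In KODam_HetFetus the dam was a Ppara knockout and the fetus heterozygous, and in KODam_KOFetus both were knockouts. FloxDam_FloxFetus had a dam and a fetus that both carried floxed Cpt2 (Cpt2f/f), the gene of the inner-membrane enzyme needed for mitochondrial oxidation of long-chain fats. In Cpt2LKODam_FloxFetus the dam also carried Albumin-Cre, which is active in hepatocytes, so Cpt2 was lost in the liver of the dam, while the genotype field of the fetus gives Cpt2f/f. The sample titles use wild-type for dam and fetus of FloxDam_FloxFetus and for the fetus of Cpt2LKODam_FloxFetus, where the genotype fields give the floxed allele. No group had a fed dam or a Ppara knockout fetus from a heterozygous dam, so each comparison is between fasted pregnancies of these genotypes.

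NRF2, the product of Nfe2l2, is a transcription factor that KEAP1 holds in the cytosol and marks for degradation. Oxidants and electrophiles release it, and with a small MAF partner it binds antioxidant response elements near genes for glutathione synthesis, thioredoxin reduction and quinone reduction. Most control of NRF2 acts on the protein, so the level of its transcript is one part of its regulation. Cat, Sod1, Sod2 and Gpx1 encode enzymes that remove superoxide or peroxide, and they are controlled by other factors as well. The fetal liver at this stage holds both hepatocytes and a large population of red cell precursors, which make antioxidant enzymes of their own.

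The antioxidant response element is shown first, because it is the sequence that ties these genes to NRF2. RefSeq promoter windows on GRCm38.p6, each 300 bases from 250 before to 50 after a start site, were matched for 9 of the 10 genes. Each was searched for TGACNNNGC on the gene's own strand and for GCNNNGTCA, its other strand, and the 9-base match is in capitals within 29 bases, written 5′ to 3′ on the gene's strand.
Nfe2l2: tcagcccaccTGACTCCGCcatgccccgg
Gclm: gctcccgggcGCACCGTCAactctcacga
Txnrd1: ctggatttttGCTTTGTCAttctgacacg
Srxn1: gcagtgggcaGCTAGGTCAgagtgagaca
Sod1: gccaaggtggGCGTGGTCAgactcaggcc
The Nfe2l2 stretch lies at chr2:75704885-75704913 on the minus strand, with the match starting 240 bases before the start site. The Gclm stretch lies at chr3:122245413-122245441 with its match 134 bases before the start site of that window, and the Sod1 stretch at chr16:90220696-90220724 with its match 56 bases before it. The Txnrd1 stretch lies at chr10:82859104-82859132 in 1 of the gene's 3 windows, 92 bases before that start. The Srxn1 stretch lies at chr2:152105542-152105570, with its match 29 bases after the start and so within the transcribed part. A window with the motif was found for 5 of the 9 genes (55.6%), against 17.0% of tested genes with a window and 14.0% of all genes with one. No match lay in the windows of Nqo1, Cat, Sod2 and Gpx1. A match is a run of letters in the reference genome and not a measured binding site.

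The deposited values are log2 levels on a quantile-normalized scale whose unit before the logarithm is not named. They are compared here only between samples of the same gene. All 10 hepatocyte markers and all 14 erythroid markers passed the filter and none was near 0 in any library. Transcripts of Ppara remained in the knockout groups (1.87 to 2.48 in KODam_KOFetus, 2.86 to 3.47 in HetDam_HetFetus), so that gene does not check the genotypes. Cpt2 was deleted only in the dams and is no check either. In 4 libraries the mean log2 level of the markers of another organ stood 5.167 to 8.554 above its median, at a summed linear level of 147.6 to 615.4. They were gut epithelium in HetDam_HetFetus 1, skeletal muscle in HetDam_HetFetus 4 and KODam_KOFetus 2, and exocrine pancreas in Cpt2LKODam_FloxFetus 2. By summed level alone the gut markers of HetDam_HetFetus 1 (615.4) were not clear of those of KODam_KOFetus 2 (539.8) or FloxDam_FloxFetus 4 (515.9). Lung epithelium markers also stood far above their median in FloxDam_FloxFetus 1 and Cpt2LKODam_FloxFetus 3 (by 6.318 and 5.254 log2 units). Their summed levels were only 4.636 and 0.65, so these libraries were not counted among the 4. A number in the sample descriptions is shared by KODam_HetFetus 1 and 2, by KODam_KOFetus 1 and 2 and by FloxDam_FloxFetus 3 and 4. These are presumed to be littermates. Some calls named below are lost without the 4 libraries or without the littermates KODam_HetFetus 1 and 2, and this is said beside them. The calls of cell type markers, among them the erythroid markers, were not followed in these refits. Markers of other cell types moved with maternal Ppara loss too: of 13 tested markers of neutrophils and myeloid progenitors 10 were called lower (median -0.84), with summed linear levels of 5428 to 8247 in HetDam_HetFetus and 3179 to 5327 in KODam_HetFetus. Of 10 tested macrophage markers 4 were called lower. The summed level of 8 gut epithelium markers ran from 352.8 to 615.4 in HetDam_HetFetus and from 99.13 to 237.3 in KODam_HetFetus. That of 6 adrenal markers ran from 68.29 to 103 and from 4.621 to 36.23. Such a sum can rest on a few strong transcripts. By mean log2 level of the gut markers the groups overlapped, with HetDam_HetFetus 3 and 4 at -1.45 and -1.57 and KODam_HetFetus 3 at -1.41. Only 4 gut markers and 1 adrenal marker were tested, and 1 of each was called lower. The part of these cells in the results below was not tested.

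In heterozygous fetuses, loss of Ppara in the dam went with a lower level of Nfe2l2 and a higher level of Gclc, the catalytic subunit of the rate-limiting enzyme of glutathione synthesis. Sod1, the cytosolic superoxide dismutase, was also called higher, by a smaller margin. The other 7 genes, among them the NRF2 targets Nqo1, Gclm, Txnrd1 and Srxn1, did not pass the test. The 3 calls of 10 stand against 39.0% of all tested genes called in the same comparison (26.4% higher and 12.6% lower), so the share called is near the background. The median difference of the 10 genes was 0.05 on the log2 scale, against 0.14 for all tested genes. Calls are at an adjusted p under 0.05, from limma with Benjamini-Hochberg adjustment over all tested genes, and an error after ± is the standard error of a difference or the SD of a group of 4.

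**Figure D1:**
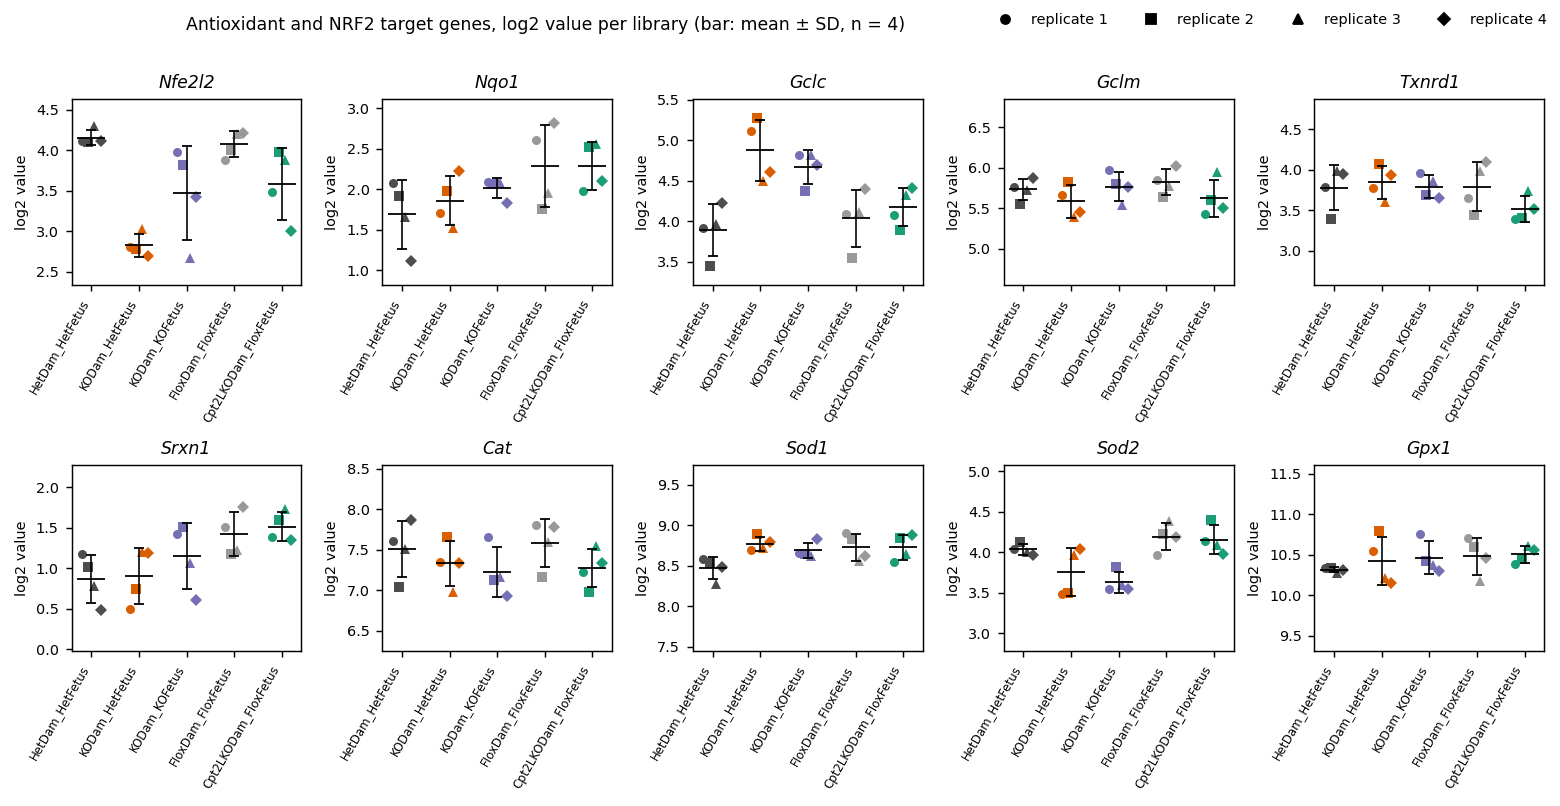
Log2 value of each of the 10 genes (vertical axis, a separate range for each gene) in the 20 libraries, by group on the horizontal axis. Points are libraries, with 1 marker shape per replicate number, and bars are the group mean ± SD (n = 4). Nfe2l2 sits between 2.69 and 3.03 in KODam_HetFetus and between 4.10 and 4.30 in HetDam_HetFetus, and Gclc shows the opposite order of these groups.

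Nfe2l2 (chr2:75675513-75704663) read 4.11, 4.10, 4.30 and 4.11 in replicates 1 to 4 of HetDam_HetFetus. It read 2.80, 2.78, 3.03 and 2.69 in KODam_HetFetus. Every library of the knockout dams lay more than 1 log2 unit below every library of the heterozygous dams, and both groups were tight. The difference was -1.33 ± 0.227, a level 0.398 times that of the control group (limma, adjusted p = 3.92e-04). Of the 11800 genes tested, 318 (2.69%) fell further. Without the littermates KODam_HetFetus 1 and 2 the difference was -1.30 (adjusted p = 0.00661), and without the 4 libraries with markers of another organ it was -1.37 (adjusted p = 0.00443).

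Nfe2l2 was more scattered in KODam_KOFetus and Cpt2LKODam_FloxFetus. KODam_KOFetus read 3.98, 3.82, 2.67 and 3.42, with the presumed littermates 1 and 2 close to the controls and replicate 3 as low as KODam_HetFetus. Cpt2LKODam_FloxFetus read 3.48, 3.98, 3.88 and 3.00, and FloxDam_FloxFetus 3.88, 4.00, 4.20 and 4.21. By group mean the order was HetDam_HetFetus (4.16 ± 0.0947), FloxDam_FloxFetus (4.07 ± 0.158), Cpt2LKODam_FloxFetus (3.59 ± 0.444), KODam_KOFetus (3.47 ± 0.587) and KODam_HetFetus (2.83 ± 0.145), and the libraries of each neighbouring pair in that order overlapped. The 2 control groups and KODam_HetFetus had SDs of 0.158 or less, whereas the SDs of KODam_KOFetus and Cpt2LKODam_FloxFetus were 0.444 or more.

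Gclc (chr9:77754535-77794489) moved the other way. It read 3.92, 3.45, 3.96 and 4.22 in HetDam_HetFetus and 5.11, 5.27, 4.50 and 4.61 in KODam_HetFetus. The lowest library of the knockout dams lay above the highest library of the heterozygous dams, and within the former group the littermates 1 and 2 were the highest. The difference was 0.99 ± 0.203, or 1.98-fold (limma, adjusted p = 0.00131), and 786 of the 11800 genes tested (6.66%) rose further. Without those littermates it was 0.67 (adjusted p = 0.039), and without the 4 libraries with markers of another organ it was 1.17 (adjusted p = 0.00457). KODam_KOFetus read 4.82, 4.37, 4.81 and 4.69, while FloxDam_FloxFetus read 4.09, 3.54, 4.11 and 4.39 and Cpt2LKODam_FloxFetus 4.07, 3.89, 4.32 and 4.41. By group mean, KODam_HetFetus (4.87 ± 0.376) and KODam_KOFetus (4.67 ± 0.21) thus stood above Cpt2LKODam_FloxFetus (4.17 ± 0.235), FloxDam_FloxFetus (4.03 ± 0.354) and HetDam_HetFetus (3.89 ± 0.317), with overlap between every neighbouring pair.

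Gclc followed the red cell gene Slc4a1 closely. Slc4a1 was picked as 1 of the 3 genes most correlated with Gclc among all tested genes. Ticrr and Rad21 came before it (both 0.964). Slc4a1, which encodes the anion exchanger of the red cell membrane, read 9.05, 8.49, 9.15 and 9.29 in HetDam_HetFetus and 10.13, 10.20, 9.61 and 9.74 in KODam_HetFetus, an order of libraries much like that of Gclc. Over the 20 libraries the Pearson correlation of Gclc with Slc4a1 was 0.961 (Spearman 0.974, and 0.942 without the 2 libraries farthest from the median of Slc4a1). The deviations from the group means correlated at 0.931. Because the pick used these same libraries, these values describe it and are not separate support. Slc4a1 and Epor were the 2 of 14 erythroid markers called higher in this comparison (0.93 and 0.92), none was called lower, and the median of the list was 0.22. The summed linear level of the erythroid list ran from 170600 to 218400 in HetDam_HetFetus and from 215600 to 231700 in KODam_HetFetus, and none of its defining markers was near 0. The part of red cell precursors in the Gclc difference was not tested, and in whole tissue a change in the number of cells of a type and a change in RNA per cell cannot be told apart.

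**Figure D2:**
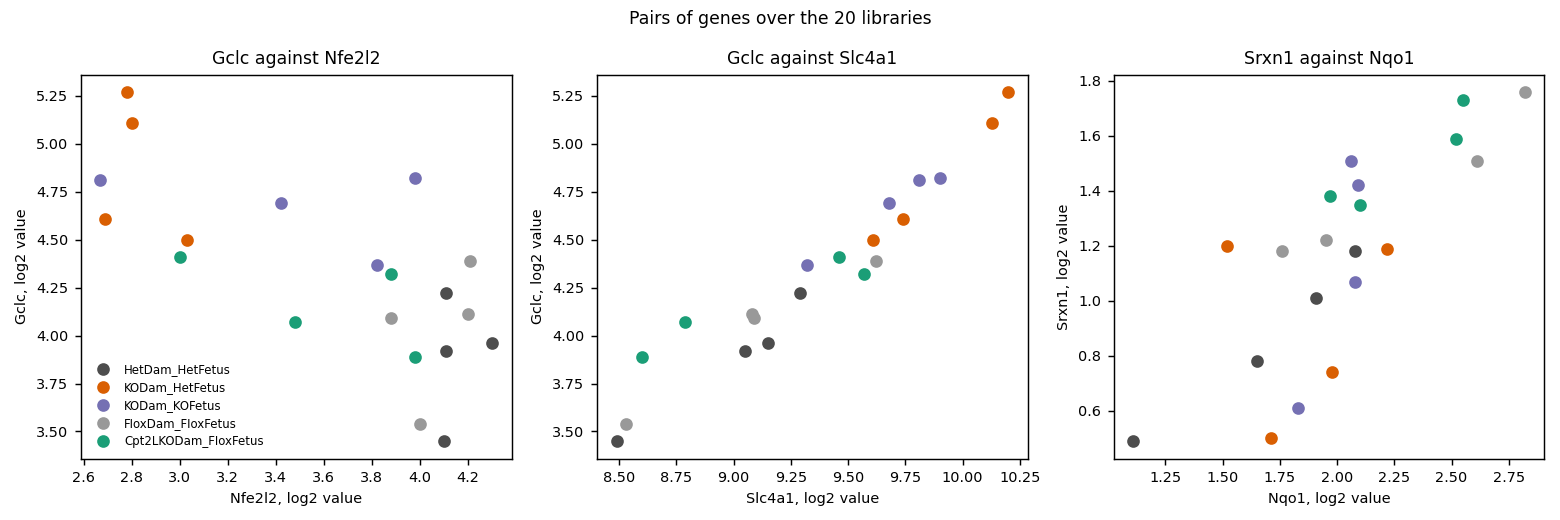
Log2 value of 1 gene against another in the 20 libraries, colored by group: Gclc against Nfe2l2, Gclc against Slc4a1, and Srxn1 against Nqo1. Gclc and Slc4a1 form a single line through all 5 groups (Pearson correlation 0.961), whereas Gclc and Nfe2l2 show mainly the separation of the groups (correlation -0.709, and -0.196 between deviations from the group means). Slc4a1 was picked for its correlation with Gclc in these libraries.

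The other subunit of the enzyme did not share the rise. Gclm (chr3:122245487-122267215), the modifier subunit, ranged from 5.56 to 5.88 in HetDam_HetFetus and from 5.40 to 5.83 in KODam_HetFetus, and over all 20 libraries it stayed between 5.40 and 6.02. The groups overlapped, with a difference of -0.14 ± 0.131 (limma, adjusted p = 0.404) and a 95% interval from -0.42 to 0.13. The interval of Gclc in the same comparison ran from 0.56 to 1.41, although the difference between the subunits was not itself tested.

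The remaining classical NRF2 targets lay within their spread. Txnrd1 (chr10:82833951-82897724), the cytosolic thioredoxin reductase, ranged from 3.39 to 3.99 in HetDam_HetFetus and from 3.60 to 4.07 in KODam_HetFetus, with a difference of 0.06 (95% interval -0.26 to 0.39). Nqo1 (chr8:107388225-107403205), the quinone reductase often used as a readout of NRF2, read 2.08, 1.91, 1.65 and 1.11 in HetDam_HetFetus and 1.71, 1.98, 1.52 and 2.22 in KODam_HetFetus, with a difference of 0.17 (interval -0.33 to 0.67). Srxn1 (chr2:152105524-152111376), which repairs over-oxidized peroxiredoxins, read 1.18, 1.01, 0.78 and 0.49 against 0.50, 0.74, 1.20 and 1.19, with a difference of 0.04 (interval -0.41 to 0.49). The libraries of the groups were intermixed for all 3 genes. The intervals of Nqo1 and Srxn1 are wide, and differences of up to about 0.67 and 0.49 lie within them.

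Among the enzymes that remove superoxide, Sod1 and Sod2 differed in their pattern. Sod1 (chr16:90220762-90226333) read 8.58, 8.54, 8.28 and 8.49 in HetDam_HetFetus and 8.69, 8.89, 8.72 and 8.79 in KODam_HetFetus. These groups did not overlap, and the difference was 0.30 ± 0.104, or 1.23-fold (limma, adjusted p = 0.029). The call was lost without HetDam_HetFetus 3, the lowest library (0.23, adjusted p = 0.102), without KODam_HetFetus 2 (adjusted p = 0.0803) or 4 (adjusted p = 0.0552), without both littermates (adjusted p = 0.123) and without the 4 libraries with markers of another organ (0.36, adjusted p = 0.0624). It was also lost with litter as a random block (0.30, adjusted p = 0.0506), and when libraries were scaled by a trimmed mean, where the difference was 0.17 (adjusted p = 0.247). HetDam_HetFetus had the lowest mean of Sod1 (8.47 ± 0.136), the 4 others had means of 8.69 to 8.77, and its libraries overlapped with those of FloxDam_FloxFetus and Cpt2LKODam_FloxFetus.

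Sod2 (chr17:13007839-13018119), the mitochondrial manganese enzyme, read 4.04, 4.13, 4.00 and 3.97 in HetDam_HetFetus and 3.49, 3.50, 3.97 and 4.04 in KODam_HetFetus. The littermates KODam_HetFetus 1 and 2 were low and the other 2 fetuses were level with the controls. The difference of -0.28 ± 0.133 did not pass (limma, adjusted p = 0.0991), and without the littermates it was -0.03 (adjusted p = 0.891). In KODam_KOFetus Sod2 read 3.55, 3.82, 3.60 and 3.55, with every library below every library of HetDam_HetFetus. That difference was -0.40 ± 0.133, a level 0.756 times that of the control group (adjusted p = 0.0341). It lost its call when any of the HetDam_HetFetus libraries, or KODam_KOFetus 1, 3 or 4, was left out (adjusted p of 0.0526 to 0.086), and without the 4 libraries with markers of another organ (-0.49, adjusted p = 0.0686). FloxDam_FloxFetus (4.19 ± 0.17) and Cpt2LKODam_FloxFetus (4.15 ± 0.175) had the highest means.

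The peroxide-removing enzymes did not pass in any comparison. Cat (chr2:103453904-103485153), the peroxisomal catalase, ranged from 7.04 to 7.87 in HetDam_HetFetus, from 6.98 to 7.66 in KODam_HetFetus and from 6.93 to 7.66 in KODam_KOFetus. Its differences from the heterozygous dams were -0.18 ± 0.195 and -0.29 ± 0.195, with 95% intervals that reached 0.23 and 0.12. Gpx1 (chr9:108339080-108340342), the cytosolic selenium-dependent glutathione peroxidase, was almost constant in HetDam_HetFetus, at 10.33, 10.34, 10.27 and 10.31. In KODam_HetFetus it read 10.54, 10.79, 10.21 and 10.15, so the littermates 1 and 2 lay above all controls and the other 2 fetuses below them. The difference of the means was 0.11 ± 0.139 (95% interval -0.18 to 0.40).

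Loss of Ppara in the fetus itself was examined between KODam_KOFetus and KODam_HetFetus, all from knockout dams. No litter number was shared between these groups, so fetal genotype cannot be told apart from litter and dam. None of the 10 genes passed in limma (1 at an unadjusted p under 0.05), against 0.822% of all tested genes called and 10.9% at an unadjusted p under 0.05. The largest difference was that of Nfe2l2, which was 0.65 ± 0.227 higher in KODam_KOFetus (adjusted p = 0.336). Without KODam_KOFetus 3, the low library, it was 0.92 (adjusted p = 0.0176). The other 9 differences lay between -0.20 and 0.25.

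Knockout of both dam and fetus, against both heterozygous, gave 1 gene higher and 2 lower of 10, where 24.7% of all tested genes were called (17.4% higher and 7.31% lower). This comparison shares its control group with that of maternal Ppara loss and its knockout group with that of fetal Ppara loss, so the values are given side by side and not as separate support. Gclc was 0.79 ± 0.203 higher (limma, adjusted p = 0.0101), beside 0.99 for the loss in the dam alone, and all 4 KODam_KOFetus libraries lay above all HetDam_HetFetus libraries. Of the 14 erythroid markers 3 were called higher here and none lower (median 0.34), and of the 13 markers of neutrophils and myeloid progenitors 7 were called lower (median -0.65). Their part in these results was not tested. Nfe2l2 was 0.68 ± 0.227 lower (difference -0.68, adjusted p = 0.0353), beside -1.33. Its call was lost without KODam_KOFetus 3 (-0.41, adjusted p = 0.129), without KODam_KOFetus 4 or any of the HetDam_HetFetus libraries (adjusted p of 0.055 to 0.0818), and without the 4 libraries with markers of another organ (-0.84, adjusted p = 0.0671). The libraries of Sod1 did not overlap here either, with a difference of 0.22 ± 0.104 that did not pass (adjusted p = 0.127).

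**Figure D3:**
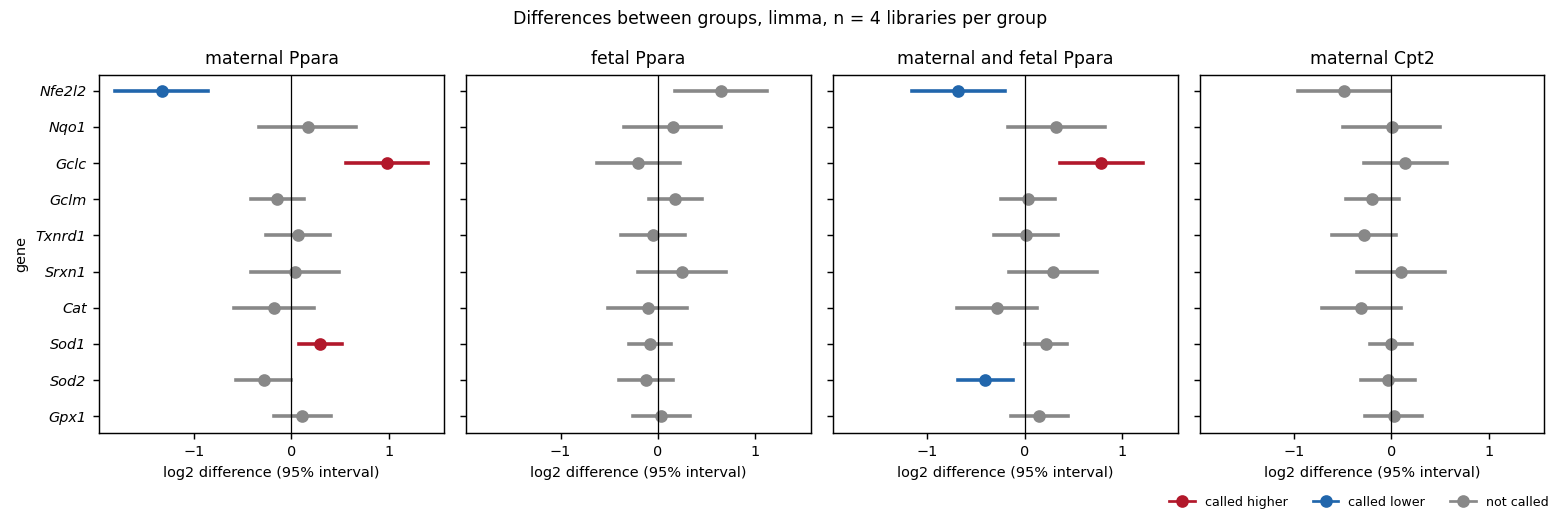
Log2 difference between groups (horizontal axis) for each of the 10 genes (vertical axis) in 4 comparisons, with points for the estimate and lines for its 95% interval from limma (n = 4 libraries per group). Red marks genes called higher, blue lower and gray not called. Nfe2l2 and Gclc stand apart at -1.33 and 0.99 for maternal Ppara loss, and no gene is called for fetal Ppara loss or maternal Cpt2 loss.

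Loss of Cpt2 from the dam's liver gave no call among the 10 genes in limma, and none among the 11805 genes tested (a share of 0%), although 1311 had an unadjusted p under 0.05. Nfe2l2 was the 1 member at an unadjusted p under 0.05, with a difference of -0.49 ± 0.227 (adjusted p = 0.442), and the low libraries were Cpt2LKODam_FloxFetus 1 and 4. Gclc differed by 0.14 ± 0.203, with a 95% interval from -0.28 to 0.57. The difference between the maternal Ppara and maternal Cpt2 effects was tested directly. It was -0.84 ± 0.322 for Nfe2l2 (adjusted p = 0.174) and 0.85 ± 0.287 for Gclc (adjusted p = 0.149), and 0 of 11798 genes passed in limma, with 2343 at an unadjusted p under 0.05. The responses of these genes to the 2 maternal defects were therefore not shown to differ.

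The control groups of the 2 arms were compared as a measure of how far control fetuses differ between genotypes, where genotype and breeding cannot be told apart. No member was called in limma, against 0.136% of all tested genes, with 3 members at an unadjusted p under 0.05. Srxn1 read 1.51, 1.18, 1.22 and 1.76 in FloxDam_FloxFetus, level with or above the highest HetDam_HetFetus library, and Nqo1 read 2.61, 1.76, 1.95 and 2.82. The differences, HetDam_HetFetus minus FloxDam_FloxFetus, were -0.55 ± 0.216 for Srxn1 (adjusted p = 0.228), -0.60 ± 0.237 for Nqo1 (adjusted p = 0.233) and -0.26 ± 0.104 for Sod1 (adjusted p = 0.236). For these 3 genes the gap between control groups was near or above the difference seen with maternal Ppara loss. For Nfe2l2 and Gclc the control groups differed by 0.08 and -0.15, well under the differences seen with maternal Ppara loss. The gap between control groups is not given for every gene of the lists below.

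The wider redox network was then read from lists that do not include the 10 genes. Over 7 lists, 39 of 95 tested genes were called with maternal Ppara loss, 22 higher and 17 lower, which is again near the 39.0% of all genes. Without the littermates KODam_HetFetus 1 and 2, 24.1% of all genes were called, and 17 of the 39 list genes kept their call. Without the 4 libraries with markers of another organ, 26.9% of all genes were called and 23 of the 39 kept their call. With litter as a random block, 31.9% of all genes were called and 29 of the 39 kept their call. With both dam and fetus knocked out, 28 of the 95 were called, 15 higher and 13 lower, beside 24.7% of all genes. Of these 28, 17 kept their call with litter as a random block, where 19.7% of all genes were called. Without the 4 libraries 8 kept it, where 14.9% of all genes were called, and 18 did under scaling by a trimmed mean. For maternal Ppara loss that scaling moved the median difference of all genes from 0.14 to 0.02, and the split of all calls from 3117 higher and 1483 lower to 2212 and 2232. Relative to the median of all genes, Nfe2l2 was at -1.47, Gclc at 0.84, Sod1 at 0.16 and Sod2 at -0.43. These values are the same under both scalings by construction, because the scaling shifts every gene of a library by the same amount.

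Genes that control NRF2 were called in both directions, 4 higher and 2 lower of 13 tested (median 0.09; 3 and 3 under the trimmed mean). Of the machinery that tags NRF2 for degradation, Cul3, the ubiquitin ligase scaffold, rose by 0.54 ± 0.126 (limma, adjusted p = 0.0031) and Gsk3b, a kinase that primes NRF2 for a second ligase, by 0.85 ± 0.167 (adjusted p = 9.75e-04), while Btrc, the adaptor of that second ligase, fell by 0.48. The Btrc call was lost without the littermates (-0.31, adjusted p = 0.242) and without the 4 libraries with markers of another organ (-0.40, adjusted p = 0.167). Rbx1, the RING subunit that works with CUL3, rose by 0.39 ± 0.146 (adjusted p = 0.0393), with libraries that overlapped between the groups, and was not called without the 4 libraries (0.30, adjusted p = 0.249) or under the trimmed mean (0.27, adjusted p = 0.178). Keap1 itself differed by -0.32 and did not pass (adjusted p = 0.111). The small MAF partners split: Mafg, at 3.27, 2.94, 3.51 and 3.27 in HetDam_HetFetus, read 2.30, 2.35, 2.42 and 2.39 in KODam_HetFetus (-0.88 ± 0.207, adjusted p = 0.00313), whereas Mafk rose by 0.58 ± 0.139 (adjusted p = 0.00363), a call lost without the littermates (0.43, adjusted p = 0.0701). For the 5 called genes other than Rbx1 the groups did not overlap, which describes genes already chosen by their call. The share of all tested genes without overlap was not counted.

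Of 21 other NRF2 targets tested, 3 were called higher and 3 lower, with a median of -0.06. The ferritin genes Fth1 and Ftl1, which store iron, rose by 0.29 and 0.44, and Slc48a1, a heme transporter, by 0.61. The detoxification genes Gsta3, a glutathione transferase, Cbr1, a carbonyl reductase, and Ugdh, which makes the sugar donor for glucuronidation, fell by 1.02, 1.08 and 0.68. Without the littermates, Slc48a1 was the only 1 of these 6 still called: Fth1 was at 0.25 (adjusted p = 0.144), Ftl1 at 0.19 (adjusted p = 0.36), Gsta3 at -0.63 (adjusted p = 0.131), Cbr1 at -0.55 (adjusted p = 0.252) and Ugdh at -0.54 (adjusted p = 0.163). Without the 4 libraries, Fth1, Ftl1 and Ugdh were not called (adjusted p of 0.192, 0.0617 and 0.11), and under the trimmed mean neither ferritin gene was (adjusted p of 0.307 and 0.167). The whole list stood at 1 higher and 6 lower under the trimmed mean, and at 1 and 1 without the littermates. Hmox1, the heme oxygenase, was the 1 gene of all 7 lists called for fetal Ppara loss: it read 6.91, 6.76, 6.94 and 6.91 in KODam_HetFetus and 7.52, 7.34, 7.42 and 7.27 in KODam_KOFetus. That difference was 0.51 ± 0.104 (limma, adjusted p = 0.0155), and without the littermates KODam_HetFetus 1 and 2 it was 0.46 (adjusted p = 0.159), and without the 4 libraries 0.52 (adjusted p = 0.0528). Fetal genotype and litter cannot be told apart in that comparison. With maternal Ppara loss Hmox1 differed by -0.26 ± 0.104 (adjusted p = 0.052).

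**Figure D4:**
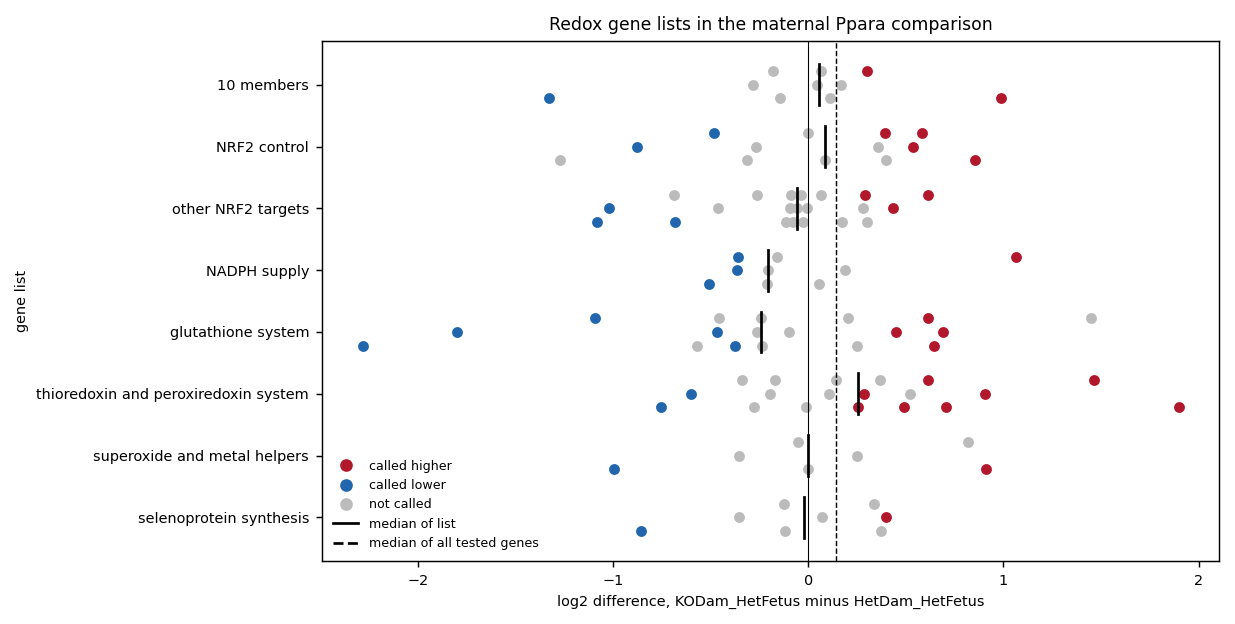
Log2 difference with maternal Ppara loss (horizontal axis) of every tested gene in the 8 lists (vertical axis). Points are genes, red called higher, blue called lower and gray not called, with the vertical offset only for legibility. The short black line is the list median and the dashed line the median of all tested genes (0.14). Calls lie on both sides of 0 in every list, and the medians run from -0.24 for the glutathione system to 0.25 for the thioredoxin and peroxiredoxin system.

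Of 18 other genes of the glutathione system, 4 rose and 5 fell, with a median of -0.24 (3 and 7 under the trimmed mean, and 5 and 2 without the littermates). Gss, the second enzyme of synthesis, read 4.58, 4.32, 4.35 and 4.69 in HetDam_HetFetus and 5.12, 5.17, 5.12 and 5.12 in KODam_HetFetus, a rise of 0.64 ± 0.115 (limma, adjusted p = 5.25e-04). Gsr, which regenerates reduced glutathione, rose by 0.45 ± 0.127 (adjusted p = 0.00963), but not without the 4 libraries (0.41, adjusted p = 0.0867) or under the trimmed mean (0.32, adjusted p = 0.0501). Slc25a39, the mitochondrial glutathione carrier, rose by 0.69 and Glrx5, a mitochondrial glutaredoxin of iron-sulfur cluster assembly, by 0.61. Ggt1, the enzyme that starts breakdown of extracellular glutathione, fell by 1.80 ± 0.27 (adjusted p = 1.92e-04) and Chac2, which cleaves it in the cytosol, by 2.28 ± 0.441 (adjusted p = 8.87e-04). The others that fell were Gpx3, the extracellular peroxidase (-1.09), Glo1, a glyoxalase (-0.47), and Glrx3 (-0.38). None of these 3 was called without the littermates (adjusted p of 0.0724, 0.119 and 0.172), nor Glo1 and Glrx3 without the 4 libraries (adjusted p of 0.0595 and 0.131). Chac1, a relative of Chac2 with the same activity, differed by 1.45 ± 0.786 and did not pass (adjusted p = 0.151). With both dam and fetus knocked out, Gss (0.68), Slc25a39 (0.51) and Glrx5 (0.60) were again higher and Ggt1 (-1.49) lower, and Chac1 was called higher (2.33 ± 0.786, adjusted p = 0.0374). Without the 4 libraries the calls of Slc25a39 (0.45, adjusted p = 0.0722) and Chac1 (2.68, adjusted p = 0.0724) were lost. Chac1 was not called with litter as a random block either (2.29, adjusted p = 0.0689), nor on the scales log2(value + 1) and log2(value + 4) (adjusted p of 0.0552 and 0.0847).

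The thioredoxin and peroxiredoxin list had 8 genes higher and 2 lower of 19, with a median of 0.25. Under the trimmed mean it stood at 5 and 4, and without the littermates at 5 and 0. Txnip, the inhibitor of thioredoxin, read 7.48, 6.45, 7.18 and 7.02 in HetDam_HetFetus and 8.86, 8.46, 8.74 and 9.66 in KODam_HetFetus, a rise of 1.90 ± 0.515 (limma, adjusted p = 0.00769). Prdx2, the main peroxiredoxin of red cells, rose by 0.49 ± 0.13 (adjusted p = 0.00648), but not under the trimmed mean (0.36, adjusted p = 0.0609) or without the littermates (0.32, adjusted p = 0.127). Prdx2 ran from 8.88 to 9.18 in HetDam_HetFetus and from 9.32 to 9.72 in KODam_HetFetus. In FloxDam_FloxFetus it read 9.57, 9.46, 9.16 and 9.61, which overlapped with KODam_HetFetus. Sesn2 and Sesn3, stress-induced sestrins, rose by 0.71 and 1.47, while Msrb1, a selenium-containing methionine sulfoxide reductase, fell by 0.76 and Prdx5 by 0.60. Without the littermates these 4 calls were lost, with Sesn2 at 0.85 (adjusted p = 0.0504), Sesn3 at 1.41 (adjusted p = 0.129), Msrb1 at -0.48 (adjusted p = 0.0797) and Prdx5 at -0.39 (adjusted p = 0.0823). Those of Sesn2 and Sesn3 were also lost without the 4 libraries (adjusted p of 0.118 and 0.0749).

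Ccs, the copper chaperone that loads SOD1, fell while Sod1 did not. It read 6.02, 6.14, 5.93 and 6.30 in HetDam_HetFetus, 4.73, 4.86, 5.26 and 5.58 in KODam_HetFetus and 4.69, 5.06, 4.69 and 4.93 in KODam_KOFetus. Both knockout-dam groups lay wholly below the controls, by 0.99 ± 0.17 (difference -0.99, limma, adjusted p = 3.90e-04) and 1.26 ± 0.17 (difference -1.26, adjusted p = 1.53e-04). FloxDam_FloxFetus (5.91 to 6.06) and Cpt2LKODam_FloxFetus (5.64 to 6.36) were level with the heterozygous controls. Ccs and Mt1, a metallothionein that rose by 0.91 ± 0.305 (adjusted p = 0.0241), were the 2 called genes of 7 in the list of superoxide and metal helpers (0 higher and 2 lower under the trimmed mean). The Mt1 call was lost without the littermates (0.50, adjusted p = 0.31), without the 4 libraries (0.83, adjusted p = 0.116) and under the trimmed mean (0.78, adjusted p = 0.0779).

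Of 9 genes that supply NADPH, the reductant of the glutathione and thioredoxin systems, 1 was called higher and 3 lower (1 and 4 under the trimmed mean). Me1, the cytosolic malic enzyme, rose by 1.06 ± 0.233 (limma, adjusted p = 0.00201), while Idh2 (-0.51), Pgd (-0.36) and G6pdx (-0.36) were lower. Without the littermates Me1 was the only 1 of these still called, and Pgd and G6pdx were not called without the 4 libraries either (adjusted p of 0.182 and 0.116). Me1 read -0.87 to 0.08 in HetDam_HetFetus, around the filter level of a linear value of 1. In FloxDam_FloxFetus it read 0.67, 0.67, 0.42 and 0.43, within the range of KODam_HetFetus (0.33 to 1.22). Of 8 genes of selenoprotein synthesis tested, Scly, which recovers selenium from selenocysteine, fell by 0.86 ± 0.139 (adjusted p = 3.01e-04) and Secisbp2 was called higher (0.40, adjusted p = 0.0441), though not under the trimmed mean (0.27, adjusted p = 0.138), without the littermates (0.49, adjusted p = 0.0602) or without the 4 libraries (0.43, adjusted p = 0.135).

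Across the 20 libraries the 10 genes did not move as a block. Of their 45 pairs the highest correlation was that of Nqo1 with Srxn1 (Pearson 0.792, Spearman 0.752, 0.691 without the 2 libraries farthest from the median of Nqo1, and 0.664 for deviations from the group means). Nfe2l2 correlated with these targets at 0.10 (Nqo1) and 0.28 (Srxn1), with Txnrd1 at -0.01 and with Gclm at 0.53. Within groups, Gclc, Txnrd1, Gclm and Cat varied together: deviations correlated at 0.806 for Gclc with Cat, 0.80 for Txnrd1 with Cat, 0.776 for Gclc with Txnrd1 and 0.755 for Gclm with Cat. Sod2 ran against Gclc (-0.797, and -0.696 for deviations). With Gpx1 it correlated at -0.357 over all libraries (Spearman -0.22) and at -0.723 for deviations. Without the 2 libraries farthest from the median of Gpx1 the first of these values was -0.05. These correlations are descriptions over libraries that share genotype groups, litters and 1 normalization.

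The genes most like each member were found by Pearson correlation over the 20 libraries among all tested genes. For Gclc they were Ticrr and Rad21 (both 0.964) and Slc4a1, and for Txnrd1 they included Ipo9 (0.939). For Gpx1 the nearest were Mgst3, Dnajc9 and Blvrb (0.832 to 0.816), and for Cat they were Acss1, Foxo3 and Fads2 (0.896 to 0.812). For Sod2 they were Mdh1, the cytosolic malate dehydrogenase (0.965), Esrra, a nuclear receptor of mitochondrial genes (0.936), and Spryd4 (0.936). For Nfe2l2 they were B3galnt2 (0.962), Trmt1l (0.949) and Tpra1 (0.944). Chosen after their values were seen, Chac2 and Mafg followed Nfe2l2 at 0.931 and 0.912 and Txnip ran against it at -0.878, with deviations from the group means at 0.84, 0.784 and -0.84.

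Where Nfe2l2 was scattered, the same fetuses stood apart for Chac2 and Txnip. Both genes were chosen after their values were seen, so this restates the correlations above library by library. In KODam_KOFetus, Chac2 read 4.68, 4.47, 2.32 and 2.97 and Txnip 5.37, 6.59, 8.91 and 7.83, so the presumed littermates 1 and 2 were above replicates 3 and 4 for Chac2 and below them for Txnip. In Cpt2LKODam_FloxFetus, replicate 4 had the lowest Nfe2l2 (3.00), the lowest Chac2 (2.74 against 3.86 to 4.64) and the highest Txnip (8.07 against 6.71 to 7.64). The part of litter in this scatter was not tested.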

How the data were processed

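The authors deposited 1 table of log2 values for 45802 gene entries in 20 libraries. Per the labels' protocols, Trizol and a column were used to purify RNA, and the libraries were stranded, poly(A)-selected and read from 1 end. The build GRCm38.p6 and the tools Partek 7.0 and bcl2fastq 2.17.1.14 are named per the submitters' processing notes. How reads were aligned and counted is not given in the sources used here. The quartiles of all libraries were equal, so the deposited log2 values had been quantile normalized. Sequencing depth is unknown, so the precision of low values cannot be stated and no count test was run. Libraries correlated at 0.951 to 0.987 across genes, and no duplicate was found.

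Genes entered the tests if 4 or more libraries had a linear value of 1 or more (11807 genes). All 20 libraries entered 1 fit with a mean per group in limma 3.58.1 (R 4.3.3), with variances moderated along a mean-variance trend (degrees of freedom 15 residual, 4.09 prior), checked on simulated data. Benjamini-Hochberg adjustment of the two-sided p-values ran over all genes in each of 6 comparisons. Fold changes are ratios of geometric means. Each fetus counted as 1 replicate, although some share a presumed dam, so p-values do not separate litters from fetuses. With litter as a random block the correlation within presumed litters was estimated at 0.566, from 3 pairs. Of these pairs only KODam_HetFetus 1 and 2 were left out together, so KODam_KOFetus 1 and 2 had no such refit. Members were named by symbol, and for other lists up to 4 called genes with the smallest p, genes whose groups do not overlap, and the 3 genes most correlated with each member could be named. The members and lists were chosen with earlier results of these data known. Positions and promoter windows are from RefSeq on GRCm38.p6. Alternatives were other filters, offsets and scaling, blocks for litter and replicate number, fetal sex, and left-out libraries. The set of 4 libraries with markers of another organ was added after the data were seen, because the rule first chosen (a marker list's mean more than 2 log2 units above its median) took out 11 libraries. The set of 4 was limited to larger rises that also had a high summed linear level.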

Additional observations from a re-analysis of the deposited data

Results flagged for a closer look

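Each of the 10 genes was examined in each group of 4 for a library far from the other 3 by Dixon's criterion, which chance alone meets in about 1 of 20 groups. Of 50 groups, 2 met it. Nfe2l2 in HetDam_HetFetus 3 read 4.30, with the nearest library at 4.11 and a gap of 0.936 of the group's range. Nqo1 in KODam_KOFetus 4 read 1.83, with the nearest at 2.06 and a gap of 0.881 of the range.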

How the results depend on the processing

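The 6 member differences called at all kept their sign under the 12 alternatives and 20 fits without 1 library, and 28 of the 54 not called changed sign under at least 1. With maternal Ppara loss, 3 members were called, 2 with litter as a random block, where Sod1 lost its call, and 1, Nfe2l2, without the 11 libraries past the first rule on other organs; that fit leaves some groups with 1 library, which is assumed to vary like the others. With both dam and fetus knocked out the count fell from 3 to 0 under that rule, to 1 without the 4 libraries and to between 1 and 3 without each library in turn. For fetal Ppara loss it ranged from 0 to 1. Leaving out each library gave 2 to 3 calls for maternal Ppara loss. The Sod2 difference for maternal Ppara loss passed under the trimmed mean (-0.41, adjusted p = 0.0126) and without KODam_HetFetus 4 (-0.38, adjusted p = 0.0379). Replicate numbers are not a pairing: deviations of same-numbered libraries correlated at 0.0388 on average, over 0.1 in 16 of 40 pairs. With a replicate block the member counts stayed at 3, 0 and 3 for maternal, fetal and combined Ppara loss, and 4681 genes were called for the first against 4600. Apart from what such alternatives construct (fewer samples or genes), causes were not tested. Depth is unknown, so what it limits cannot be stated.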
